A study of Mus musculus with 8 samples.

Results

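The 6 conventional actin genes of the mouse were followed in RNA sequencing of 8 kidney cell samples: Acta1, Acta2, Actg2, Actc1, Actb and Actg1. They are 6 of the 22322 genes in the deposited table and were matched there by gene symbol. They form a complete family, but they were selected on earlier results of these data, namely the lower counts of several of them in the comparison described here. Their levels in that comparison are therefore given as a description, with no test.

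The tested cells, labelled primary renal fibroblasts, received adenovirus that expresses Cre recombinase (Ad-Cre, n = 4) and are labelled suv39h1 knockdown. The controls, labelled WT, received adenovirus that expresses green fluorescent protein (Ad-GFP, n = 4). TGF-β (5 ng/ml, 48 hours) was given to all 8 samples, controls included, so no unstimulated baseline exists. The labels name neither the promoter that drives Cre, the Suv39h1 allele nor the age of the animals, and they do not say whether replicates came from separate cultures, so the spread between replicates may be technical.

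Suv39h1, which encodes a histone H3 lysine 9 methyltransferase, was lower but not absent in the Ad-Cre libraries. Ad-Cre replicates 1 to 4 had 25.3, 22.8, 21.6 and 22.6 CPM of it, and Ad-GFP replicates 1 to 4 had 29.0, 27.8, 29.3 and 29.6 CPM (CPM, counts scaled to the TMM-adjusted library total), 79.6% of Ad-GFP (log2 ratio -0.33 ± 0.056, SE; adjusted p = 3.3e-05, edgeR quasi-likelihood test). As the labels do not give the allele, counts over the whole gene could miss a deletion of a few exons, and this value is no measure of the knockdown's depth. The Ad-Cre libraries held 18006938 to 23940043 counts and the Ad-GFP libraries 15879244 to 17930632, so every Ad-Cre library was the deeper. Genes on the list of fibroblast markers differed widely in level. Fn1 was at 12222 CPM in Ad-Cre and 12272 CPM in Ad-GFP, Vim at 167.0 CPM in Ad-Cre and 251.9 CPM in Ad-GFP, Col1a1 at 131.4 CPM in Ad-Cre and 206.6 CPM in Ad-GFP, and Pdgfrb at 25.5 CPM in Ad-Cre and 28.0 CPM in Ad-GFP. Others were low. Pdgfra was at 4.24 CPM in Ad-Cre and 5.14 CPM in Ad-GFP, and Dcn at 4.80 CPM in Ad-Cre and 4.19 CPM in Ad-GFP. Thy1 was at 1.535 CPM in Ad-Cre and 7.19 CPM in Ad-GFP, and Lum at 0.289 CPM in Ad-Cre and 0.173 CPM in Ad-GFP. Several epithelial genes were abundant. Krt8 was at 1168 CPM in Ad-Cre and 1504 CPM in Ad-GFP, and Cldn4 at 1099 CPM in Ad-Cre and 1141 CPM in Ad-GFP. The epithelial cadherin gene Cdh1 was at 677 CPM in Ad-Cre and 700.2 CPM in Ad-GFP (genes named after their values were seen).

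Actin is the protein of the thin cytoskeletal filaments. Mammals make 6 closely related isoforms from separate genes. Actb and Actg1 encode the β and γ cytoplasmic actins that every cell uses for shape, adhesion and movement. Acta2 and Actg2 encode the α and γ smooth muscle actins, and Acta1 and Actc1 the α actins of skeletal and cardiac muscle. Acta2 is the usual marker of myofibroblasts, the contractile cells that TGF-β induces from fibroblasts. Actin genes are classic targets of serum response factor (SRF), which binds a DNA element called the CArG box together with myocardin-related cofactors, and these cofactors are held inactive by unpolymerised actin.

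Promoter sequence was available in the RefSeq table (GRCm38.p6) for 4 of the 6 genes, and it is shown because the CArG box is the element through which SRF binds actin genes. Each line gives the 250 bases before the transcript start, 5′ to 3′ on the minus strand: chr8:123894776-123895025 for Acta1, chr19:34255374-34255623 for Acta2, chr2:114052876-114053125 for Actc1 and chr11:120348496-120348745 for Actg1. The RefSeq starts used here differ from the ends of the GENCODE genes given further on, so the Actc1 window lies inside the GENCODE gene, as do most of the Acta2 window and the part of the Actg1 window nearest its start. Capitals mark the CArG box and its variants in which 1 of the 6 middle bases is C or G.
Acta1: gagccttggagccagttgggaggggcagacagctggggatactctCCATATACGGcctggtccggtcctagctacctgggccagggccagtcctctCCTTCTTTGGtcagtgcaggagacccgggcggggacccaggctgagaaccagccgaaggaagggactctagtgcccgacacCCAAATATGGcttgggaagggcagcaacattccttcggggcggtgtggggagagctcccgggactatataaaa
Acta2: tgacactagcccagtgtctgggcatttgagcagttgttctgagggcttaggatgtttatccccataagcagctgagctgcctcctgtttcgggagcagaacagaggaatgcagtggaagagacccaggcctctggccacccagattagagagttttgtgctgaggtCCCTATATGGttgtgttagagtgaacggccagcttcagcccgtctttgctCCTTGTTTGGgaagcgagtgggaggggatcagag
Actc1: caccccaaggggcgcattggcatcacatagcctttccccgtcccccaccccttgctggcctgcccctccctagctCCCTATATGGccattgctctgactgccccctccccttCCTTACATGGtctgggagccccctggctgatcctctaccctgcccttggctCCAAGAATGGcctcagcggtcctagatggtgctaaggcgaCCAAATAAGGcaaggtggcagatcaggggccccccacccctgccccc
Actg1: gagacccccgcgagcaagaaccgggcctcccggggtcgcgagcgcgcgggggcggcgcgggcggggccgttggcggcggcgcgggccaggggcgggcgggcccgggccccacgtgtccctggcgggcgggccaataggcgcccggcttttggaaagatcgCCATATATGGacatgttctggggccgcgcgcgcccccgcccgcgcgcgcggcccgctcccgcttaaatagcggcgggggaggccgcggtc

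A CArG box was found in Acta1 (CCAAATATGG, 73 to 64 bases before the start), Actc1 (CCAAATAAGG, 47 to 38 bases) and Actg1 (CCATATATGG, 90 to 81 bases). The Acta2 window held no such box but 2 variants, CCCTATATGG at 84 to 75 bases and CCTTGTTTGG at 34 to 25 bases. Acta1 held 2 variants and Actc1 held 3. Of 32851 RefSeq promoters cut to the same 250 bases and searched on both strands, 1.47% held the CArG box and 7.24% a variant. The core of the MCAT element bound by TEAD factors, CATTCC on either strand, was in Acta1 and Acta2 and not in the Actc1 or Actg1 window, and in 12.6% of all promoters. These matches describe letters and were not tested as binding sites.

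**Figure D1:**
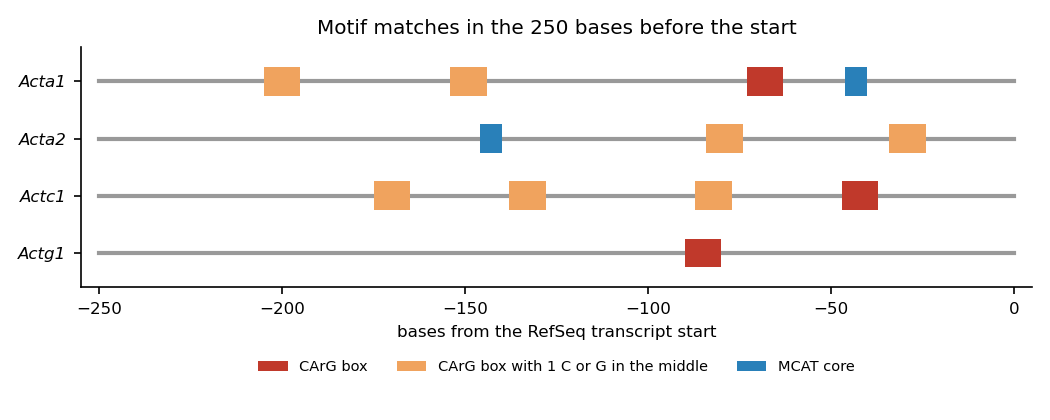
Map of motif matches in the 250 bases before the RefSeq transcript start of Acta1, Acta2, Actc1 and Actg1. The horizontal axis is the distance from the start in bases, and coloured blocks are the CArG box, its variants with 1 C or G in the middle, and the MCAT core. Acta1, Actc1 and Actg1 each have 1 CArG box, and Acta2 has 2 variants.

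The start of each coding sequence is shown because the isoforms differ most at their amino end. Each line gives the first 45 coding bases from GENCODE M21 transcripts on GRCm38. Capitals mark bases that differ from Acta2, for the muscle actins, or from Actb, for Actg1, in an alignment of the whole coding sequences.
Acta1: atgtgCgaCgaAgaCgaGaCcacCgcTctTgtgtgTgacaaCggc
Acta2: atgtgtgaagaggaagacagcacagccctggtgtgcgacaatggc
Actg2: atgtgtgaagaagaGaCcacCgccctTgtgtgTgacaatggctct
Actc1: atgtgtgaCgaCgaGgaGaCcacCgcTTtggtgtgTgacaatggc
Actb: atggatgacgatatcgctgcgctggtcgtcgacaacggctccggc
Actg1: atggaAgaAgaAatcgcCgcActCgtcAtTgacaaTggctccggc

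Within these 45 bases, Acta1 differed from Acta2 at 11 positions, Actc1 at 9 and Actg2 at 5, and Actg1 differed from Actb at 9. The Actg2 coding sequence is shorter, 1128 against 1131 bases, and a gap of 3 bases in the alignment is not counted among its 5, so its line is shifted against that of Acta2. Over the whole coding sequence, Actb and Actg1 were 88.6% identical, the closest of the 15 pairs, and Acta2 and Actg1 were 81.5% identical, the most distant. The genes lie on 6 chromosomes, all on the minus strand of GRCm38. Acta1 (ENSMUSG00000031972) is at 123891769 to 123894751 of chromosome 8, Acta2 (ENSMUSG00000035783) at 34241090 to 34255590 of chromosome 19 and Actg2 (ENSMUSG00000059430) at 83512905 to 83536265 of chromosome 6. Actc1 (ENSMUSG00000068614) is at 114047282 to 114053548 of chromosome 2, Actb (ENSMUSG00000029580) at 142903115 to 142906754 of chromosome 5 and Actg1 (ENSMUSG00000062825) at 120345690 to 120348542 of chromosome 11. No exon of the 6 genes overlaps an exon on the other strand in GENCODE M21. Exons of Actg1 share 147 bases with exons on its own strand, and the genes that overlap its locus are Gm23419 and Mir6935.

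Similarity between actin genes bears on how reads can be assigned. All windows of 100 bases of the main Acta1, Acta2, Actg2 and Actc1 transcripts occurred in no other gene's transcripts. For Actb 98.9% of such windows were its own. For Actg1 it was 48.9%, and the rest also occur in 6 other genes, all annotated as processed pseudogenes. No window of 100 bases was shared between 2 of the 6 actin genes. With windows of 50 bases, the share found in another actin gene was at most 2.57% (Actb). Of the 22 genes that shared a window of 50 bases, 14 are annotated pseudogenes, and none of these 14 has a row in the deposited table. No source used here gives the read length or says how reads with several matches were treated, so the Actg1 counts carry the largest uncertainty of this kind.

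Of the 6 actin genes, 5 had every Ad-Cre library below every Ad-GFP library. Among all 13337 genes tested, 18.2% were separated in that direction, and since the actin genes were chosen with this contrast known, nothing is read from the comparison of these shares. The sixth gene, Actc1, was at or near 0 in all libraries. The 5 genes passed the filter on low counts and Actc1 did not. In these bulk samples, fewer cells of a type and less RNA per cell cannot be told apart.

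The skeletal muscle α actin gene Acta1 had the lowest ratio of Ad-Cre to Ad-GFP among the 5 genes that passed the filter, though not the largest difference in CPM. Ad-Cre replicates 1 to 4 had 41.0, 47.5, 44.99 and 49.2 CPM, against 174.4, 195.6, 182.0 and 179.6 CPM in Ad-GFP replicates 1 to 4. The highest Ad-Cre library was far below the lowest Ad-GFP library, and the groups did not overlap. Acta1 averaged 45.7 ± 3.6 CPM in Ad-Cre and 182.9 ± 9.1 CPM in Ad-GFP (SD, n = 4 each). Acta1 in Ad-Cre thus stood at 25.1% of its Ad-GFP level (95% interval 23.6% to 26.6%; log2 ratio -1.997 ± 0.042, SE). Of the 13337 genes tested, 29 had a lower log2 ratio.

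The cardiac α actin gene Actc1 had 0 counts in each Ad-Cre library, and 2, 0, 1 and 4 counts in Ad-GFP replicates 1 to 4. The groups overlapped at 0. Summed over the group, 0 Ad-Cre counts of 85186897 allow up to 3, against 7 Ad-GFP counts of 67972080, so the summed level was at least 2.9-fold lower in Ad-Cre if the 7 counts are taken as they stand. Of these, 4 lie in Ad-GFP replicate 4. Without it Ad-GFP had 3 counts, the same number as the limit set for Ad-Cre, and no fold is given from so few. In the authors' deposited table its log2 fold change is -6.18, where the Ad-Cre mean FPKM of 0 was replaced by 0.001.

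Acta2, the α smooth muscle actin gene, had 404.0, 420.4, 415.7 and 448.4 CPM in the Ad-Cre libraries, taken from replicate 1 to 4. The Ad-GFP libraries, likewise, had 780.7, 791.5, 809.3 and 803.7 CPM. No Ad-Cre library came near the Ad-GFP range. Acta2 in Ad-Cre thus stood at 53.0% of its Ad-GFP level (95% interval 51.2% to 55.0%; log2 ratio -0.91 ± 0.025, SE), and 311 of the genes tested had a lower ratio.

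Actg2, the γ smooth muscle actin gene, was a much scarcer transcript with almost the same ratio. It had 141, 210, 173 and 200 counts in Ad-Cre replicates 1 to 4, or 7.89, 8.83, 8.31 and 9.06 CPM. Ad-GFP replicates 1 to 4 had 265, 277, 251 and 251 counts, or 15.2, 15.3, 14.8 and 15.7 CPM. The groups did not overlap on the CPM scale. Actg2 in Ad-Cre thus stood at 56.1% of its Ad-GFP level (95% interval 50.2% to 62.6%; log2 ratio -0.83 ± 0.077, SE), and this wide interval holds the Acta2 ratio.

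The cytoplasmic actin genes were also lower in Ad-Cre, by less. Actb, the β actin gene that is often used as a reference for expression, had 1444, 1463, 1449.6 and 1501 CPM in the Ad-Cre libraries (replicates 1 to 4), against 1921, 1939, 1886 and 1913 CPM in the Ad-GFP libraries. Actg1, the γ cytoplasmic actin gene, had 2625, 2695, 2635 and 2638 CPM in the Ad-Cre libraries, against 3418, 3496, 3492 and 3443 CPM in the Ad-GFP libraries. Neither gene's groups overlapped. Both had the same ratio to 3 digits: Actb was at 76.5% of Ad-GFP (95% interval 74.6% to 78.4%; log2 ratio -0.39 ± 0.018, SE) and Actg1 at 76.5% (74.8% to 78.3%; log2 ratio -0.39 ± 0.016, SE).

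**Figure D2:**
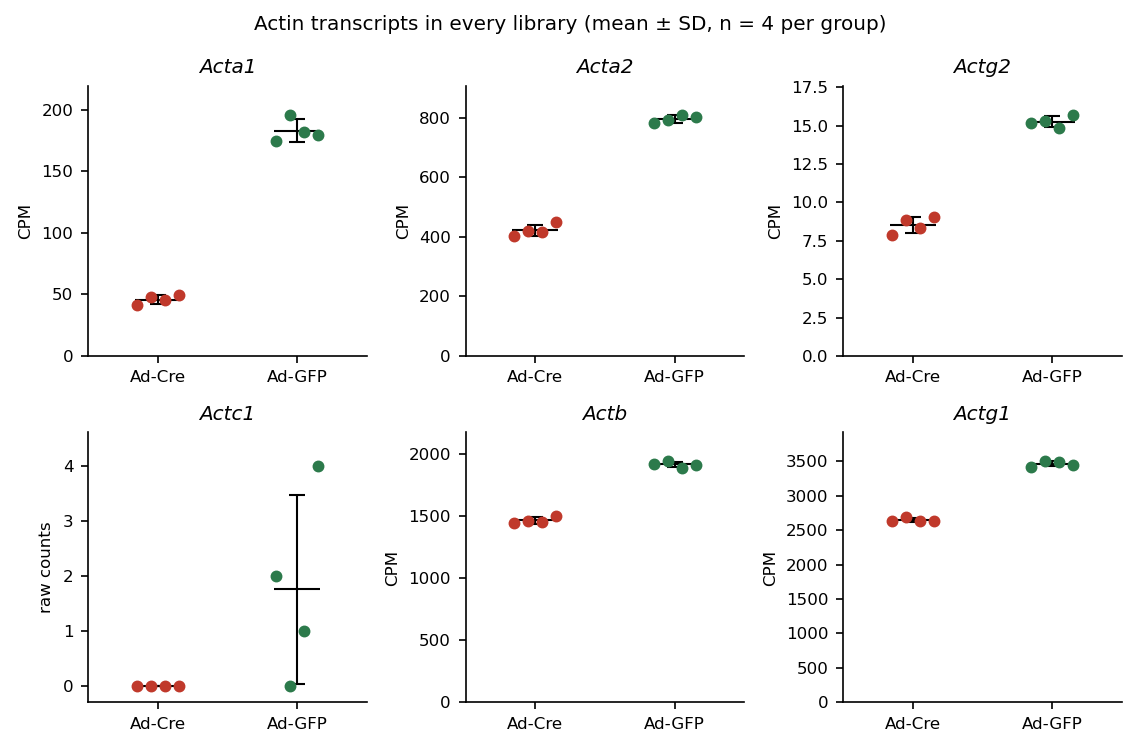
Level of each actin gene in every library, as CPM on axes that start at 0, and as raw counts for Actc1. Points are libraries, and bars give the mean and SD of the 4 libraries of a group. For the other 5 genes all Ad-Cre points lie below all Ad-GFP points, and Acta1 is at 25.1% of Ad-GFP.

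Levels of different genes were compared per length, as the deposited FPKM. The order was the same in all 8 libraries: Actg1, Actb, Acta2, Acta1, Actg2 and Actc1, from high to low, with gaps between neighbours wider than their spread in either group. In Ad-Cre the means were 1350 ± 17, 812.9 ± 13.3, 231.8 ± 16, 31.8 ± 2.7 and 7.12 ± 0.49 FPKM for the first 5 of these. In Ad-GFP they were 1790 ± 22, 1082 ± 12, 434.8 ± 6.3, 128.8 ± 6.4 and 12.4 ± 0.46 FPKM (SD, n = 4 each). The muscle actins thus differed more as a ratio and the cytoplasmic actins more in FPKM.

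The summed FPKM of the 6 genes was 2389, 2464, 2409 and 2471 in Ad-Cre replicates 1 to 4 and 3422, 3488, 3457 and 3425 in Ad-GFP replicates 1 to 4, so total actin was at 70.6% of Ad-GFP. Actin genes took 0.455% ± 0.0062 of the library counts in Ad-Cre and 0.641% ± 0.0062 in Ad-GFP (SD, n = 4 each). Of the difference in summed FPKM, Actg1 made up 43.4%, Actb 26.5%, Acta2 19.999% and Acta1 9.56%. Together the cytoplasmic genes, whose ratios were closest to 1, gave 69.9% of the difference.

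The mix of isoforms differed too. Acta1 was 1.31% ± 0.091 of the summed actin FPKM in Ad-Cre and 3.74% ± 0.15 in Ad-GFP. Acta2 was 9.52% ± 0.51 in Ad-Cre and 12.6% ± 0.23 in Ad-GFP, and Actg2 was 0.292% ± 0.015 in Ad-Cre and 0.361% ± 0.011 in Ad-GFP. Actb made up 33.4% ± 0.34 in Ad-Cre and 31.4% ± 0.34 in Ad-GFP, and Actg1 55.5% ± 0.69 in Ad-Cre and 51.9% ± 0.29 in Ad-GFP (SD, n = 4 each). For each of these 5 genes the shares of the groups did not overlap. The muscle actins together were 11.1% ± 0.60 of actin FPKM in Ad-Cre and 16.7% ± 0.13 in Ad-GFP, and the cytoplasmic actins the remainder. As the shares sum to 100% and the cytoplasmic genes had lower FPKM in Ad-Cre as well, their higher share is not a higher level.

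Among the 4 muscle actins alone, the picture turned for the smooth muscle genes. Acta1 was 11.7% ± 0.33 of muscle actin FPKM in Ad-Cre and 22.4% ± 0.99 in Ad-GFP, while Acta2 was 85.6% ± 0.37 in Ad-Cre and 75.5% ± 1.0 in Ad-GFP. Acta2 exceeded Acta1 7.65-, 7.13-, 7.13- and 7.31-fold in FPKM in Ad-Cre replicates 1 to 4 and 3.59-, 3.13-, 3.43- and 3.37-fold in Ad-GFP replicates 1 to 4. The lowest Ad-Cre value of this ratio lay well above the highest Ad-GFP value. The FPKM ratio of Actg1 to Actb was 1.66 ± 0.032 in Ad-Cre and 1.65 ± 0.027 in Ad-GFP (SD, n = 4 each), with overlapping groups. The ratio of Acta2 to Actg2 was 32.6 ± 0.81 in Ad-Cre and 34.99 ± 1.2 in Ad-GFP, and the lowest Ad-GFP library exceeded the highest Ad-Cre library only narrowly, 33.44 against 33.41.

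**Figure D3:**
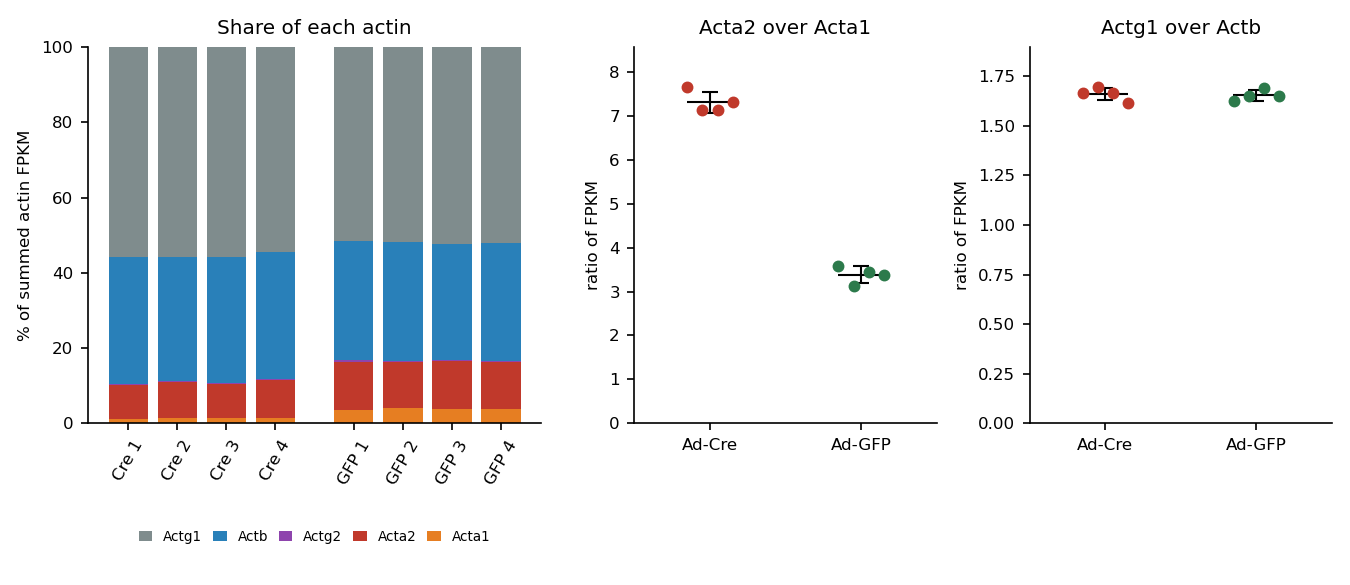
Left, share of each actin gene in the summed actin FPKM of each library, in percent. Middle and right, FPKM ratios of Acta2 to Acta1 and of Actg1 to Actb, with libraries as points and bars for the mean and SD (n = 4). Acta1 holds 1.31% in Ad-Cre and 3.74% in Ad-GFP on average, the first ratio separates the groups, and the second overlaps.

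Replicates varied least for the abundant genes. The coefficient of variation of CPM was 1.20% in Ad-Cre and 1.11% in Ad-GFP for Actg1, and 1.74% in Ad-Cre and 1.15% in Ad-GFP for Actb. It was 4.47% in Ad-Cre and 1.60% in Ad-GFP for Acta2, 6.17% in Ad-Cre and 2.32% in Ad-GFP for Actg2, and 7.84% in Ad-Cre and 4.96% in Ad-GFP for Acta1, so all 5 genes varied more between Ad-Cre libraries. Within Ad-Cre, Acta1, Acta2, Actg2 and Actb had the same order of libraries, replicate 1 lowest, then 3, 2 and 4. Of all genes tested, 4.59% had that order. Actg1 had the order of the Ad-Cre library totals instead, 1, 3, 4 and 2. Within Ad-GFP, Acta1 and Actg1 shared an order and the other 3 genes each had a different order. The length that each count and FPKM together imply for a gene had a coefficient of variation over the 8 libraries of 0.0756% for Actg1, 2.65% for Acta2 and 4.44% for Actg2, so the FPKM of these 2 smooth muscle genes carry some variation that the counts do not.

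Set among all genes, the cytoplasmic actin transcripts were among the most abundant. By mean CPM over 8 libraries, Actg1 ranked 16, Actb 28, Acta2 148, Acta1 1960 and Actg2 8927 of the 22322 genes. The median log2 ratio over all genes tested was 0.0041, and 10.5% of genes tested had a lower ratio than Actb or Actg1, 2.33% a lower ratio than Acta2, 2.95% than Actg2 and 0.217% than Acta1.

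**Figure D4:**
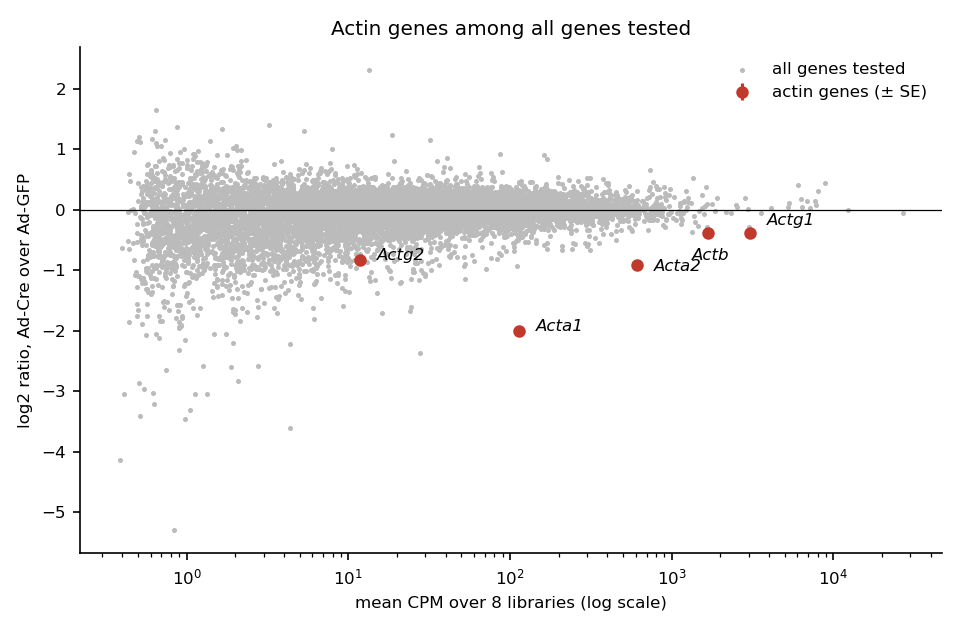
Log2 ratio of Ad-Cre over Ad-GFP against mean CPM over 8 libraries (log scale). Grey points are the 13337 genes tested, and red points are the 5 actin genes that passed the filter on low counts, with SE bars. The 5 lie below 0, from -0.39 for Actb and Actg1 to -1.997 for Acta1.

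The genes whose pattern over the 8 libraries was most like each actin gene were found from log2 CPM centred on its mean, by the root mean squared difference, among genes of at least 5 CPM. The measure includes the difference between the groups, so likeness mainly means a like ratio. Of 10691 genes compared, Acta2 was the nearest to Actg2 and Actg2 the second nearest to Acta2 (difference 0.055 log2 units). Actg1 was the second nearest to Actb and Actb the fourth nearest to Actg1 (0.023 log2 units). The actin gene nearest to Acta1 was Acta2, at rank 58 (0.55 log2 units). Outside the family, the proliferation marker Mki67 (0.052 log2 units), Krt20 (0.055) and Dgkk (0.059) were nearest to Acta2. Krt20 (0.056), Dgkk (0.057) and the tropomyosin gene Tpm2 (0.064) were nearest to Actg2. Nearest to Actb were the calponin gene Cnn2 (0.014), the keratin gene Krt8 (0.024) and Txnip (0.027), and nearest to Actg1 were the phosphatase gene Dusp4 (0.016) and Krt8 (0.022). Acta1 had no close match, with Pycard (0.15), Spink12 (0.21) and Cyp4b1 (0.24) nearest.

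Genes that act on actin did not all follow the actin genes. Of 147 tested genes on lists of actin regulators, 65 fell, 29 rose and 53 did not pass the test, where over all genes tested 20.5% fell and 19.8% rose (edgeR quasi-likelihood test, adjusted p under 0.05). Their median log2 ratio was -0.058, against 0.0041 over all genes tested. The genes on the lists were not matched in level to all genes tested, and abundant genes can pass with small differences. Capzb, at 277.7 CPM in Ad-Cre, passed at 94.7% of Ad-GFP (adjusted p = 0.0062, edgeR). No list was tested as a set. The lists were drawn up with earlier results of these data known.

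Of 25 tropomyosin, myosin and regulator genes, 14 fell and 4 rose, with a median log2 ratio of -0.14 (1 rose with limma on FPKM). Myl9, a myosin regulatory light chain gene, fell to 47.5 ± 4.5 CPM in Ad-Cre, against 94.0 ± 0.72 CPM in Ad-GFP (adjusted p = 4.1e-15), and Cnn1, the smooth muscle calponin gene, fell to 35.7 ± 2.1 CPM in Ad-Cre, against 68.1 ± 1.9 CPM in Ad-GFP (adjusted p = 5.7e-15; SD, n = 4 each, edgeR). Both were thus near the Acta2 ratio, at 50.7% and 52.6% of Ad-GFP. The 4 that rose were the myosin light chain kinase gene Mylk at 145.9%, Myl12b at 114.2%, Tpm1 at 105.9% and Rhoa at 105.7% (named after their values were seen).

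Of 30 tested genes for filament crosslinking, capping and anchoring, 19 fell and 4 rose, with a median log2 ratio of -0.15 (2 rose without Ad-Cre replicate 4, and 2 with limma on FPKM). Pdlim5, a Z-disc and stress fibre scaffold, fell to 67.2% of Ad-GFP. Of 23 genes for monomer binding and filament turnover, 14 fell and 3 rose, with a median of -0.16. Dstn, encoding the actin-severing protein destrin, fell to 78.9% of Ad-GFP, while Scin, encoding the severing and capping protein scinderin, rose to 122.3%. These 3 genes had adjusted p-values of at most 1.42e-10 by edgeR's test.

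Genes for making new filaments went both ways. Of 33 nucleation and elongation genes, 11 rose and 8 fell, with a median log2 ratio of -0.035 (6 rose with limma on FPKM). The formin gene Fhod3 rose to 239.4 ± 5.8 CPM in Ad-Cre, against 178.8 ± 2.9 CPM in Ad-GFP, and the formin gene Diaph3 fell to 7.58 ± 0.45 CPM in Ad-Cre, against 14.8 ± 1.5 CPM in Ad-GFP (SD, n = 4 each; adjusted p = 5.3e-13 and 2.1e-09, edgeR). Of 10 tested actin-like and actin-related protein genes, 2 rose and 1 fell, with a median of 0.013. Actr3, an Arp2/3 complex subunit, fell to 92.1% of Ad-GFP. Actr1b, encoding a dynactin subunit, was at 105.0% (adjusted p = 0.029 by edgeR's test), and DESeq2 ended this call (adjusted p = 0.058), as did upper-quartile scaling (adjusted p = 0.12). The other gene that rose, Actr8, lost its call under both as well, and without Ad-GFP replicate 1 or replicate 2 the list had 0 that rose. Without Ad-Cre replicate 2 it had 2 that fell.

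SRF and its cofactors went both ways. Of 11 tested genes, 4 fell and 3 rose, with a median log2 ratio of 0.0076. Srf itself fell to 36.7 ± 0.31 CPM in Ad-Cre, against 44.2 ± 3.3 CPM in Ad-GFP, with groups that did not overlap (83.2% of Ad-GFP; adjusted p = 9.9e-05, edgeR). The cofactor gene Mrtfa fell to 62.2 ± 2.0 CPM in Ad-Cre, against 68.8 ± 3.7 CPM in Ad-GFP (90.4%; adjusted p = 0.0047, edgeR), though its groups overlapped. Mrtfb was at 116.0 ± 4.4 CPM in Ad-Cre and 115.3 ± 2.0 CPM in Ad-GFP (adjusted p = 0.866, edgeR; SD, n = 4 each). Scai, which encodes a repressor of these cofactors, rose to 131.7% of Ad-GFP, and Phactr4, encoding an actin- and phosphatase-binding protein, rose to 114.9% (adjusted p = 7.4e-08 and 2.4e-06, edgeR). The muscle cofactor gene Myocd did not pass the filter on low counts.

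Of 17 genes for actin folding and modification, 6 fell and 2 rose, with a median log2 ratio of 0.0072. The number that rose was 1 without Ad-Cre replicate 2, 3 or 4, or Ad-GFP replicate 2, 3 or 4, each left out alone. It was also 1 with upper-quartile scaling, with the filter of at least 5 CPM, with DESeq2 and with limma on FPKM. Without Ad-Cre replicate 1 or Ad-GFP replicate 1 it was 3. Pdcl3, encoding a cofactor of the CCT chaperonin that folds actin, fell to 86.6% of Ad-GFP, and the prefoldin subunit gene Pfdn5 rose to 119.8% (adjusted p = 4.3e-06 and 3.5e-05, edgeR).

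**Figure D5:**
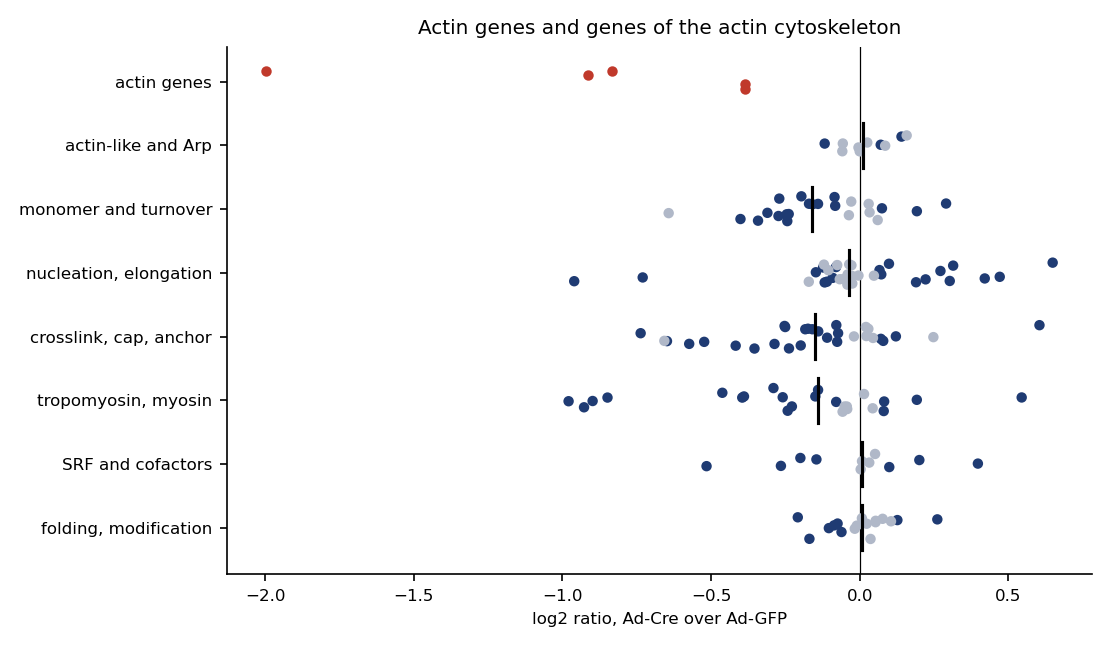
Log2 ratio of Ad-Cre over Ad-GFP of the 5 actin genes that passed the filter (red) and of the tested genes on 7 lists of actin regulators, 1 row per list. Dark points passed edgeR's test, pale points did not, and black bars mark the median of each regulator list. List medians lie between -0.16 and 0.013, and the actin genes at -0.39 and below.

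Markers of some other cell types moved with the actin genes in these samples, and their part in the actin differences was not tested. The counts below stand beside 20.5% of all genes tested that fell and 19.8% that rose. Of 30 sarcomere and striated muscle markers, 24 were under 1 CPM in every library and 7, among them Myod1 and Myog, had 0 counts in all 8. Their summed level was 11.2 to 12.9 CPM in Ad-Cre and 11.9 to 13.9 CPM in Ad-GFP, and of 6 tested, 1 rose and 1 fell. The most abundant were Casq1, at 2.44 CPM in Ad-Cre and 2.87 CPM in Ad-GFP, and Ttn, at 2.41 CPM in Ad-Cre and 2.05 CPM in Ad-GFP, and neither passed the test. Of 8 tested smooth muscle and mural cell markers, 5 fell and 1 rose, and the summed level was 826 to 864 CPM in Ad-Cre and 790 to 819 CPM in Ad-GFP. The sum was dominated by Smtn, a smooth muscle cytoskeletal gene, which rose to 115.4% of Ad-GFP, so it says little of the scarcer markers. Mcam fell to 91.7%, a call that limma on FPKM did not make (adjusted p = 0.14). The others that fell were Myh11 at 55.5%, Lmod1 at 60.3%, Cspg4 at 74.7% and Des at 77.0% of Ad-GFP (named after their values were seen).

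All 9 tested endothelial markers fell, where 20.5% of all genes tested fell and 19.8% rose. Their summed level was 65.0 to 73.6 CPM in Ad-Cre and 130.8 to 138.6 CPM in Ad-GFP, and Cdh5 and Pecam1 were at 48.3% and 49.7% of Ad-GFP. Of 10 macrophage and leukocyte markers, 8 fell, and the sum was 235 to 246 CPM in Ad-Cre and 270 to 309 CPM in Ad-GFP; Lyz2 was at 89.5% and Csf1r at 82.5%. Of 10 epithelial markers, 5 fell and 4 rose, and the sum was 5189 to 5273 CPM in Ad-Cre and 5638 to 5855 CPM in Ad-GFP. The keratin genes Krt19, Krt8, Krt18 and Krt7 fell to 68.5%, 77.6%, 83.6% and 95.1% of Ad-GFP. Limma on FPKM did not make the Krt7 call (adjusted p = 0.97). Pax2, Cdh16, Epcam and Pax8 rose to 127.8%, 122.6%, 118.0% and 111.6%, with groups that did not overlap (named after their values were seen). The lower sum thus does not describe all markers on the list. Cldn4 was at 96.4%, a call lost without several single libraries (adjusted p up to 0.16). Of 9 tested fibroblast markers, 5 fell and none rose. The sum, 12614 to 12828 CPM in Ad-Cre and 12676 to 13383 CPM in Ad-GFP, was nearly all Fn1, which was at 99.6% (adjusted p = 0.783), while Vim fell to 66.3% (edgeR). The others that fell were the scarce Thy1 at 21.5%, Col1a1 at 63.7%, Col1a2 at 66.9% and Col3a1 at 79.8% of Ad-GFP (named after their values were seen). Limma on log2(FPKM + 1) did not make the Col3a1 call (adjusted p = 0.060).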

How the data were processed

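RNA sequencing of 8 samples was deposited as 1 table. Per the file headers it holds raw counts for each gene and library. Beside them the authors gave FPKM values, group mean FPKM, a log2 fold change equal to the log2 ratio of those means, and p-values with an FDR, whose test is not named. GRCm38 and mm10 are named in the submitters' processing notes. For the aligner, counter, read length and strand setting: not given in the sources used here.

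Counts were tested across all genes with edgeR 4.0.16 in R 4.3.3: filterByExpr, TMM scaling and the quasi-likelihood F-test of Ad-Cre against Ad-GFP, two-sided, with Benjamini-Hochberg adjustment over 13337 genes and a threshold of 0.05. Standard errors are the log2 ratio over the square root of F. Members and lists were chosen with earlier results of these data known, so no p is given for a member. Named genes were the members, Suv39h1, the 2 called genes of smallest p per regulator list, Srf, Mrtfa and Mrtfb, the 2 most abundant genes per cell type list, and the 3 nearest profiles of each member of at least 5 CPM; 1 gene that this rule names is not reported here. On the SRF list, 2 of 16 symbols are older names of listed genes. FPKM shares use the deposited values. Motifs, transcripts and coding sequences (Biopython 1.88) came from RefSeq and GENCODE M21.

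Alternatives were RLE and upper-quartile scaling, no filter, at least 5 CPM, DESeq2 1.42.0, limma-voom (limma 3.58.1), limma on log2(FPKM + 1) and log2(FPKM + 0.1) for genes of at least 1 FPKM, a replicate block and leaving out each library. In a test on simulated data for this comparison, with 200 of 13337 genes changed, the fit recovered 70.1% of genes changed 1.25-fold and 98.5% of genes changed 2-fold, with 6.45% of calls made on genes left as they were. The simulation gave all genes the same variability between replicates and changed far fewer genes than the 5370 called here. Its rates may therefore not hold for the real libraries. Replicates differed by more than sampling noise (chi-square per degree of freedom 1.83 to 3.35).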

Additional observations from a re-analysis of the deposited data

Results flagged for a closer look

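The share of Actg1 in the summed actin FPKM was 54.4% in Ad-Cre replicate 4 and 55.9%, 55.8% and 55.7% in Ad-Cre replicates 1 to 3. The gap between replicate 4 and its nearest neighbour was large against the range of the group. This was the 1 such value among 20 sets of 4 libraries examined (CPM and share of 5 genes in 2 groups), and about 1 in 20 is expected by chance.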

How the results depend on the processing

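The log2 ratios of the 5 tested actin genes kept their sign under all alternatives run. Those of Acta1 and Acta2 moved by less than 1 SD between replicates. Limma on log2(FPKM + 1) gave -0.73 for Actg2, -0.41 for Actb and -0.41 for Actg1, limma on log2(FPKM + 0.1) gave -0.41 for Actb and -0.41 for Actg1, and upper-quartile scaling gave -0.41 for Actg1. Leaving out single libraries gave -2.03 to -1.95 for Acta1 and -0.95 to -0.90 for Acta2. The difference in share, Ad-Cre minus Ad-GFP, was -1.88 percentage points for Acta1 and -0.054 for Actg2 when computed from counts, without regard to length. Among the muscle actins alone it was -10.6 for Acta1 and turned to 10.2 for Acta2 and 0.471 for Actg2, by the change of denominator.

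The labels give both groups replicates 1 to 4. They state no pairing, so the numbers were not taken as pairs. The deviations of same-numbered libraries correlated across genes at 0.083, 0.10, 0.0076 and -0.012. Differently numbered libraries were not compared in this way, so these values cannot decide whether the replicates were paired. With the replicate block 5390 genes were called, against 5370 without it. Limma on log2(FPKM + 1) called 3379 genes, 1353 of them higher in Ad-Cre, and limma on log2(FPKM + 0.1) called 3281 genes, 1311 of them higher, both with another unit, test and filter. The number of regulator genes called was 94, and 84 to 91 without single libraries, where the 91 (without Ad-Cre replicate 2) include newly called genes. With limma on log2(FPKM + 0.1), 3 epithelial and 5 macrophage markers fell. The filter of at least 5 CPM kept only 5 endothelial markers, and all 5 fell. Depth limits Actc1, whose 7 counts allow no finer statement.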

Other observations

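The nearest tested gene on either side of each actin gene was looked up in GENCODE M21. Of these 12 neighbours, 5 fell, 1 rose and 6 did not pass edgeR's test, where 20.5% of all genes tested fell and 19.8% rose.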
